A study of Mus musculus with 10 samples.

Results

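Messenger RNA of 9 genes of the TAL1 transcription complex was measured in primary mouse lymphatic endothelial cells (LECs), which form the inner lining of lymphatic vessels, after small interfering RNA (siRNA) against Vegfr2. The genes were Tal1, Lyl1, Lmo2, Ldb1, Gata2, Tcf3, Tcf12, Hhex and Mecom. They were chosen by name for their shared place in endothelial and blood cell transcription and found by gene symbol, 9 of the 16251 genes in the count table. The comparison has 5 libraries labelled Vegfr2 siRNA, from LECs transfected with 50 nM of siRNA duplexes, and 5 libraries labelled control, with RNA taken after 48 h in both groups. By its title the series concerns a shift of lymphatic cells toward blood cell gene programs when endothelial VEGFR2, the vascular endothelial growth factor receptor encoded by Kdr, is insufficient. All 10 samples carry the same treatment tag, so the labels do not say whether control cells received another siRNA. Nor do they say that replicates were separate cultures. A p-value here thus only sets the difference between groups against the spread of these samples within groups, which may be technical.

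TAL1 and LYL1 are closely related basic helix-loop-helix (bHLH) proteins that bind DNA only when paired with an E protein such as TCF3 or TCF12. LMO2 bridges that pair to a GATA factor, in endothelium and early blood GATA2, and LDB1 is the scaffold that holds LMO2 and lets distant complexes meet. The complex works in the shared precursors of endothelium and blood, and several of its genes stay active in endothelium after development. HHEX is a homeobox factor of the same early progenitors, and MECOM, a zinc finger factor that includes the EVI1 protein, maintains blood stem cells.

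Kdr, the target of the siRNA (Entrez gene 16542, GRCm38.p6 chr5:75932827-75979072), was at 191, 196, 200.5, 173 and 167 CPM (estimated counts scaled to a common effective library size) in the siRNA libraries, against 1328, 1320.0, 1280.0, 1259 and 1431 CPM in the control libraries. The groups did not overlap, and the siRNA mean was 14.0% ± 1.12 (SD, n = 5) of the control mean. Kdr fell by 2.83 on the log2 scale (SE 0.059, edgeR quasi-likelihood test with Benjamini-Hochberg adjustment, adjusted p = 3.14e-11). The exact permutation p for log2 CPM, two-sided, was 0.00794, which no arrangement of 5 libraries against 5 can go below. Libraries held 17946483 to 18239260 estimated counts. Lymphatic markers were present in both groups: Prox1, the master regulator of lymphatic fate, was at 405 ± 12.2 CPM in siRNA and 487 ± 17.1 CPM in control libraries (SD, n = 5 each), and Lyve1, a hyaluronan receptor of lymphatic vessels, at 4337 ± 119 CPM in siRNA and 5119 ± 81.4 CPM in control libraries. The summed CPM of 9 lymphatic markers was 11525 to 12513 in siRNA and 17216 to 18872 in control libraries, and 8 of the 9 fell. Of 7 pan-endothelial markers, Kdr among them, 6 fell, with a sum of 4040 to 4237 CPM in siRNA and 6091 to 6358 CPM in control libraries. Kdr itself averaged 186 CPM in siRNA and 1323 CPM in control libraries, so the siRNA target makes up a large part of that drop. Of 8 blood vessel markers 7 were tested, 4 fell, 1 rose and 2 did not pass, with a sum of 881 to 918 CPM in siRNA and 1158 to 1180 CPM in control libraries. Beside these counts, 35.2% of all 12161 tested genes were called lower and 36.1% higher at an adjusted p under 0.05. The part of these lower marker levels in the results below was not tested, and in bulk RNA fewer cells of a type and less RNA per cell cannot be told apart.

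All 9 genes passed the filter on low counts, and all 9 changed after the siRNA at an adjusted p under 0.05. Tal1, Ldb1, Gata2, Tcf3, Tcf12 and Hhex rose and Lyl1, Lmo2 and Mecom fell. The libraries of the groups did not overlap for any of the 9. Most genes of these cells also changed: 71.3% of 12161 tested genes passed the same threshold, 36.1% higher and 35.2% lower, and 57.0% had groups that did not overlap, so passing the test does not set the complex apart. Size separated its genes better. Against a fold of more than 1.5, which 8.56% of tested genes passed, Lyl1 and Mecom were called, both lower, where 4.88% of tested genes were called lower and 3.68% higher. The median log2 fold change of the 9 genes was 0.13, beside 0.00 for all tested genes. No direction turned and no call against no change was lost under RLE or upper-quartile scaling, DESeq2, limma-voom, other filters, a replicate block, or leaving out any 1 library.

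**Figure D1:**
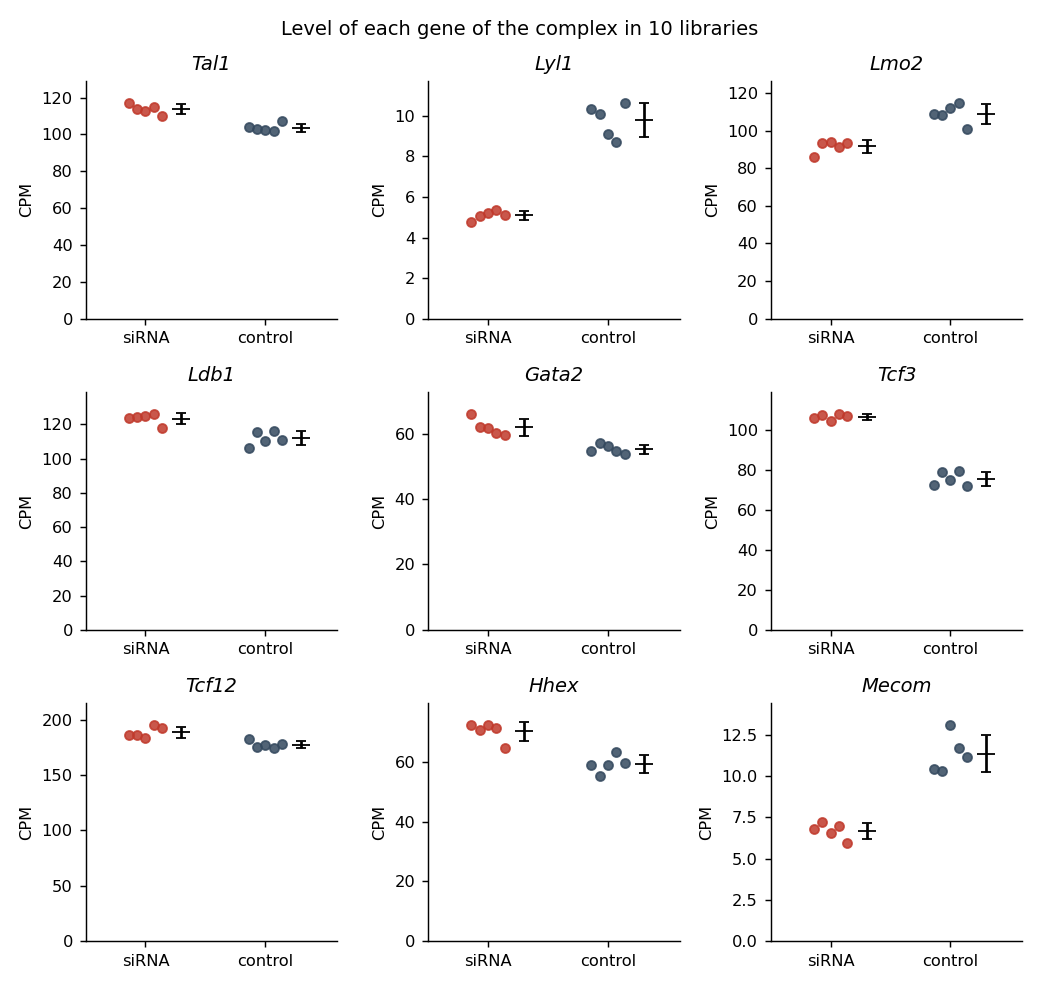
Level of each of the 9 genes in CPM (linear axis from 0), with 5 siRNA libraries on the left and 5 control libraries on the right of each panel, and the mean ± SD beside the points. Lyl1 averages 5.10 CPM in siRNA and 9.79 CPM in control libraries and Mecom 6.69 CPM in siRNA and 11.4 CPM in control libraries, the widest gaps between groups for their level, and the groups do not overlap in any panel.

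Stretches upstream of 4 of these genes are shown because they carry the largest falls (Lyl1, Mecom) and the largest rise (Tcf3), and because Tal1 is the alternative subunit to Lyl1. Each runs from 250 bases before to 50 after an annotated start, from RefSeq (GRCm38.p6), 5′ to 3′ on the strand of the gene. Capitals mark, on either strand, the E-box word CAGATG read by bHLH pairs, another E-box word spelled CAGCTG, the word GATAAG read by factors of the GATA family, the core word GGAA of ETS factors, and the composite CTGNNNNNNNNGATA or CTGNNNNNNNNNGATA, an E-box part and a GATA word to which TAL1 and GATA factors bind together.
Tal1 chr4:115056176-115056475 (+): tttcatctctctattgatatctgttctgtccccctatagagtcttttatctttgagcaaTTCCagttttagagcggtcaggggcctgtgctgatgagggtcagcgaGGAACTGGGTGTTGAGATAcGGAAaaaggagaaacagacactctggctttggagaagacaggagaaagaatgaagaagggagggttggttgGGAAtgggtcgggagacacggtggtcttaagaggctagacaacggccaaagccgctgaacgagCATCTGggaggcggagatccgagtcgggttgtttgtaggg
Lyl1 chr8:84701207-84701506 (+): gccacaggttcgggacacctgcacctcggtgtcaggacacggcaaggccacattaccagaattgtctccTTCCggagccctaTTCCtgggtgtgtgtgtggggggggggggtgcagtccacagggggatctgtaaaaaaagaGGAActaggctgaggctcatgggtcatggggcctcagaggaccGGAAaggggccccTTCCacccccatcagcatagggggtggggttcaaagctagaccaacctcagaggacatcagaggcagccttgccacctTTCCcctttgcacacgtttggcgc
Tcf3 chr10:80433586-80433885 (-): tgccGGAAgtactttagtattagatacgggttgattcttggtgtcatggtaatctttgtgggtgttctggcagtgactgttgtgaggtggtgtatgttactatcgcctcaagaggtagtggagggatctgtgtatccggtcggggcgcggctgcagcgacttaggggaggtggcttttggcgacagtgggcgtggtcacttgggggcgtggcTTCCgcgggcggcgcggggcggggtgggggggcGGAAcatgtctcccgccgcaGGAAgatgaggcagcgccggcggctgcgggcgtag
Mecom chr3:30509710-30510009 (-): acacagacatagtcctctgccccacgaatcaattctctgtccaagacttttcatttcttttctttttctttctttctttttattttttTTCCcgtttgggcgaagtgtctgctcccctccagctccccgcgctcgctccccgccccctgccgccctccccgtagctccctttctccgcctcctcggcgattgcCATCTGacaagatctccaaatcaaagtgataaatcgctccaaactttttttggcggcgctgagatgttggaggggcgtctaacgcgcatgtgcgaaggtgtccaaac
The Tal1 window held 1 CAGATG, 4 GGAA and 1 composite, whose letters begin where one of the GGAA words ends. In the Lyl1 window the 6 capital words were all GGAA, read on one strand or the other. Tcf3 had 4 GGAA and none of the other words, and Mecom had 1 CAGATG and 1 GGAA. Tal1 and Mecom each have another annotated window, not shown, which held 4 GGAA and none of the other words. RefSeq gave 15 such windows of 300 bases for 8 of the 9 genes, and none for Lmo2. CAGATG was in 2 of the 15 windows and in 17.2% of all 32851 mouse windows, CAGCTG in 2 and 16.3%, GATAAG in 1 and 7.44%, and the composite in 1 and 4.69%. GGAA was in 15 of 15 and in 96.0% of all windows, at least 4 copies were in 46.3%, and at least 6, as upstream of Lyl1, in 15.7%. A match describes letters and says nothing of binding in these cells.

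The bHLH subunits moved in opposite directions. Tal1 (Entrez gene 21349, chr4:115056426-115071755) was at 117.2, 113.9, 112.5, 114.6 and 110.2 CPM in siRNA libraries, against 103.9, 102.8, 102.4, 101.6 and 107.3 CPM in control libraries. Its lowest siRNA library lay just above its highest control library. The means were 114 ± 2.61 CPM in siRNA and 104 ± 2.22 CPM in control libraries (SD, n = 5 each), with log2 fold change 0.13 (SE 0.028, adjusted p = 4.55e-05). Lyl1 (Entrez gene 17095, chr8:84701423-84704716) was at 4.76, 5.05, 5.21, 5.38 and 5.12 CPM in siRNA libraries, against 10.3, 10.1, 9.11, 8.72 and 10.7 CPM in control libraries. Every control library was far above every siRNA library. Lyl1 averaged 5.10 ± 0.227 CPM in siRNA and 9.79 ± 0.831 CPM in control libraries and fell by 0.94 on the log2 scale (SE 0.084, adjusted p = 2.81e-13). That change was larger in size than those of 94.5% of tested genes, and it also passed the test against a fold of 1.5 (adjusted p = 2.23e-04). These values rest on 87 to 98 estimated counts per siRNA library and 158 to 190 per control library, for which counting alone gives a coefficient of variation (CV) of 10.4% in siRNA and 7.54% in control libraries. The observed CV was 4.44% in siRNA and 8.48% in control libraries.

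The ratio of Lyl1 to Tal1 counts within a library does not depend on library scaling. It was 0.0406, 0.0443, 0.0464, 0.0469 and 0.0465 in siRNA libraries, against 0.0996, 0.0984, 0.0890, 0.0859 and 0.0993 in control libraries. The groups were far apart, with means of 0.0449 ± 0.00260 in siRNA and 0.0944 ± 0.00651 in control libraries (SD, n = 5 each) and a log2 difference of -1.07. Of 6 ratios between subunits, 5 differed at p = 0.00794, the smallest the design allows (two-sided exact permutation test, p = 0.00952 after Benjamini-Hochberg adjustment over the 6), Lyl1 over Tal1 among them. Tal1 and Lyl1 had each separated fully, in opposite directions, so the p of their ratio was fixed by those levels and adds no support. The same holds for Lmo2 over Ldb1 and for the ratio of Id genes to E protein genes given below. Ratios of other gene pairs were not computed for comparison, while 57.0% of all tested genes had groups that did not overlap. Taken per kilobase of the longest annotated transcript, Lyl1 made up 9.51% ± 0.502 of the summed Tal1 and Lyl1 level in siRNA and 18.1% ± 1.03 in control libraries. Tal1 was the main bHLH transcript of the pair in both groups.

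Of the E proteins, the obligate partners of TAL1 and LYL1, Tcf3 had the largest rise of the complex. Tcf3 (Entrez gene 21423, chr10:80409541-80433976) was at 106.0, 107.1, 104.1, 107.9 and 106.8 CPM in siRNA libraries, against 72.2, 79.0, 74.6, 79.1 and 71.9 CPM in control libraries. The siRNA libraries had a CV of 1.38%, less than the 2.27% that counting alone gives, and lay well above the control libraries. Tcf3 averaged 106 ± 1.47 CPM in siRNA and 75.4 ± 3.52 CPM in control libraries and rose by 0.50 on the log2 scale (SE 0.031, adjusted p = 2.36e-18), more in size than 81.1% of tested genes but under the fold of 1.5. Tcf12 (Entrez gene 21406, chr9:71844252-72111893) was at 186.2, 186.1, 183.5, 195.2 and 192.5 CPM in siRNA libraries, against 182.5, 175.4, 176.9, 174.0 and 177.6 CPM in control libraries. The groups nearly touched, and the log2 fold change of 0.09 (SE 0.025, adjusted p = 0.00169) was the smallest of the 9. The ratio of Tcf12 to Tcf3 was 1.77 ± 0.0309 in siRNA and 2.36 ± 0.146 in control libraries, a log2 difference of -0.41 (exact permutation p = 0.00794). Tcf4, another gene of this family and outside the 9, had the highest level of the 3 per kilobase of transcript (71.6 ± 1.93 in siRNA and 71.6 ± 1.53 CPM per kilobase in control libraries). It stood at 614 ± 16.6 CPM in siRNA and 614 ± 13.1 CPM in control libraries (log2 fold change 0.00, SE 0.024, adjusted p = 0.989). Per kilobase of longest transcript Tcf3 made up 26.2% ± 0.316 of the 3 E proteins in siRNA and 20.4% ± 1.05 in control libraries, and Tcf4 52.0% ± 0.831 in siRNA and 57.1% ± 0.872 in control libraries. These shares depend strongly on the length used: with the median transcript length Tcf3 made up 4.73% in siRNA and 3.43% in control libraries, and Tcf4 82.0% in siRNA and 83.8% in control libraries. Tcf3 took the larger share in siRNA libraries with either length.

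The ID proteins bind E proteins and keep them from DNA. The 3 tested Id genes all fell, where 35.2% of all tested genes were called lower. Id2 was at 28.4 ± 2.83 CPM in siRNA and 68.5 ± 2.60 CPM in control libraries (SD, n = 5 each), with log2 fold change -1.27 (SE 0.047, adjusted p = 6.33e-21). Id1 fell by 0.21 (adjusted p = 3.30e-08) and Id3 by 0.13 (adjusted p = 4.85e-04), both less than the median size of change of all tested genes, 0.219. Id3 had fractional estimated counts in 6 libraries, so its values are less certain, and its groups overlapped. Id4 was under the filter. The summed counts of Id1, Id2 and Id3 over those of Tcf3, Tcf4 and Tcf12 gave 0.343 ± 0.0179 in siRNA and 0.446 ± 0.0201 in control libraries, a log2 difference of -0.38 (exact permutation p = 0.00794). In CPM the Id sum and the E protein sum each separated fully, in opposite directions, so this p was fixed and adds no support. With Tcf3 and Tcf12 alone as E proteins the difference was -0.53.

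**Figure D2:**
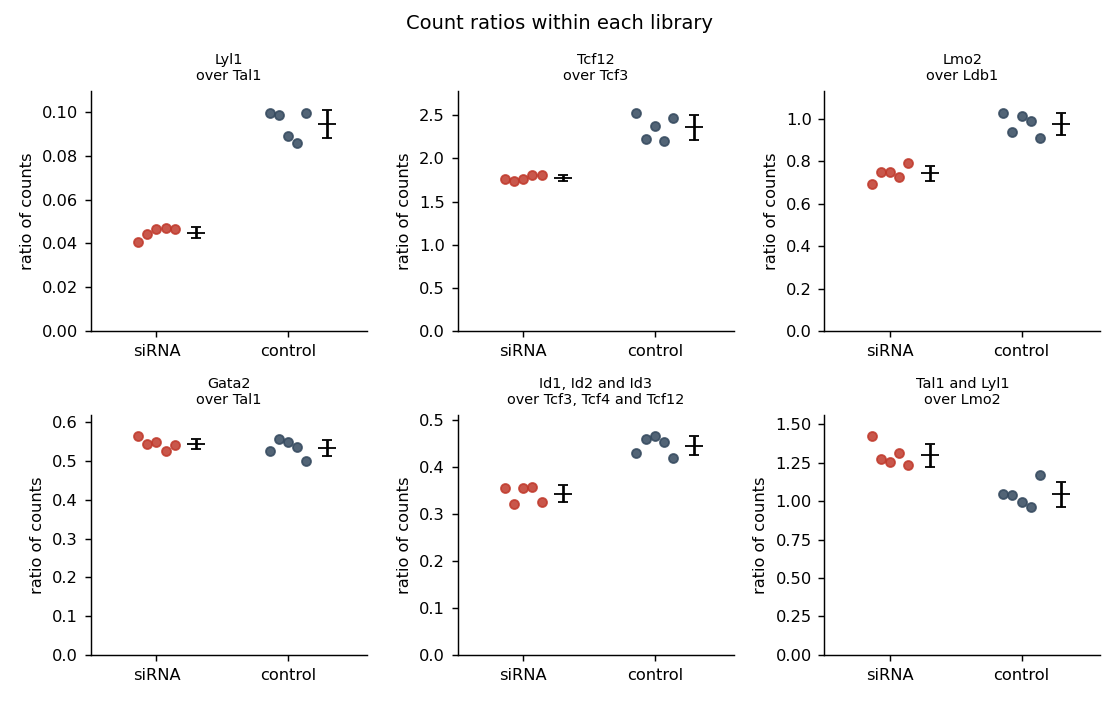
Ratios of estimated counts within each library (linear axes from 0), siRNA libraries on the left and control libraries on the right of each panel, with mean ± SD. The groups are apart in 5 panels, and Gata2 over Tal1, at 0.545 ± 0.0135 in siRNA and 0.534 ± 0.0218 in control libraries, overlaps.

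The bridge and the scaffold also moved apart. Lmo2 (Entrez gene 16909, chr2:103957903-103981878), which joins the bHLH pair to GATA2, was at 85.9, 93.4, 93.8, 91.3 and 93.5 CPM in siRNA libraries, against 109, 108, 112, 115 and 101 CPM in control libraries. All siRNA libraries were below all control libraries. Lmo2 averaged 91.6 ± 3.34 CPM in siRNA and 109 ± 5.31 CPM in control libraries and fell by 0.25 on the log2 scale (SE 0.032, adjusted p = 4.26e-09). Ldb1 (Entrez gene 16825, chr19:46031525-46048145), the scaffold that binds LMO2, was at 123.6, 124.2, 124.8, 126.1 and 117.8 CPM in siRNA libraries, against 106.0, 115.4, 110.4, 116.3 and 110.8 CPM in control libraries. The lowest siRNA library was close to the highest control library. Ldb1 averaged 123 ± 3.21 CPM in siRNA and 112 ± 4.18 CPM in control libraries (log2 fold change 0.14, SE 0.029, adjusted p = 3.33e-05). Of its exon bases, 3.84% are shared with Pprc1 on the other strand, a coactivator gene whose log2 fold change was 0.78, and whether counting used strand is not given in the sources used here. Lmo2 over Ldb1 was 0.743 ± 0.0368 in siRNA and 0.976 ± 0.0508 in control libraries, a log2 difference of -0.39 (exact permutation p = 0.00794, fixed by the opposite moves of both genes). The summed counts of Tal1 and Lyl1 over those of Lmo2 came to 1.299 ± 0.0743 in siRNA and 1.04 ± 0.0798 in control libraries, a log2 difference of 0.32 (exact permutation p = 0.00794).

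Gata2, the GATA factor of the complex in endothelium (Entrez gene 14461, chr6:88193891-88207032), was at 66.1, 62.0, 61.7, 60.3 and 59.5 CPM in siRNA libraries, against 54.7, 57.2, 56.3, 54.6 and 53.7 CPM in control libraries. Every siRNA library was above every control library. Gata2 averaged 61.9 ± 2.53 CPM in siRNA and 55.3 ± 1.40 CPM in control libraries (log2 fold change 0.16, SE 0.035, adjusted p = 5.92e-05). Gata2 and Tal1 rose by like amounts, and their ratio ran from 0.527 to 0.564 in siRNA libraries and from 0.501 to 0.556 in control libraries. The log2 difference in that ratio was 0.03 (exact permutation p = 0.389, unchanged by the adjustment over 6), and it lay between 0.01 and 0.04 with any 1 library left out. A difference of that size was not detected with 5 libraries a group.

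Hhex and Mecom, the factors that work beside the core complex, also changed in opposite directions. Hhex (Entrez gene 15242, chr19:37434841-37440731) was at 72.6, 70.9, 72.5, 71.5 and 64.8 CPM in siRNA libraries, against 59.0, 55.4, 59.0, 63.6 and 59.8 CPM in control libraries. The fifth siRNA library stood below the other 4 and close to the highest control library. Hhex averaged 70.5 ± 3.22 CPM in siRNA and 59.4 ± 2.93 CPM in control libraries and rose by 0.25 on the log2 scale (SE 0.036, adjusted p = 8.54e-08). Mecom (Entrez gene 14013, chr3:29951296-30509759) was at 6.79, 7.24, 6.53, 6.97 and 5.94 CPM in siRNA libraries, against 10.5, 10.3, 13.1, 11.7 and 11.2 CPM in control libraries. The groups were well apart. Mecom averaged 6.69 ± 0.493 CPM in siRNA and 11.4 ± 1.13 CPM in control libraries and fell by 0.76 on the log2 scale (SE 0.081, adjusted p = 2.89e-11), more in size than 91.3% of tested genes. These levels rest on 108 to 132 estimated counts per siRNA library and 186 to 236 per control library, and a count per gene does not separate the long and short protein forms. Against a fold of 1.5 Mecom was at the edge (adjusted p = 0.0490), and the call was lost with the replicate number as a block (adjusted p = 0.0614) and without any 1 of siRNA libraries 1, 3, 4 and 5 or control libraries 3, 4 and 5, with adjusted p from 0.0277 to 0.239 over all 10 omissions.

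**Figure D3:**
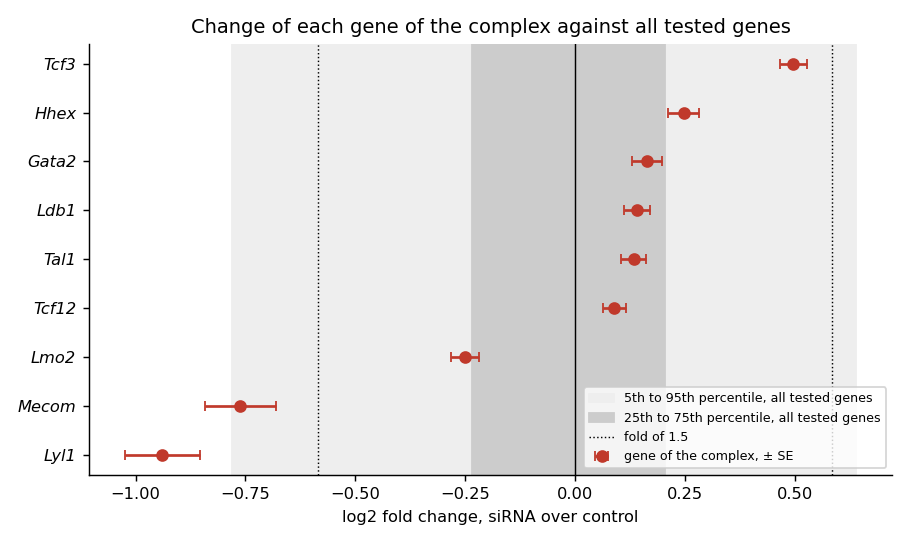
Log2 fold change of each of the 9 genes, siRNA over control (points, ± SE), on the spread of all tested genes (dark band 25th to 75th percentile, -0.23 to 0.21, and light band 5th to 95th percentile, -0.78 to 0.64), with dotted lines at a fold of 1.5. Lyl1 lies below the 5th percentile, Mecom just inside it, and Tal1, Ldb1, Gata2 and Tcf12 lie within the dark band.

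Levels of different genes were compared only as CPM per kilobase of the longest annotated transcript. On that scale Lmo2 was the most abundant of the 9, at 53.7 ± 1.96 in siRNA and 63.9 ± 3.12 in control libraries (SD, n = 5 each), above 89.3% of tested genes in siRNA and 91.4% in control libraries. Below it in control libraries came Ldb1 (35.7 ± 1.33), Tcf12 (28.1 ± 0.512), Tcf3 (25.5 ± 1.19), Tal1 (24.6 ± 0.525), Gata2 (15.5 ± 0.392) and Hhex (15.2 ± 0.751 CPM per kilobase). Tcf3 and Tal1 overlapped there, as did Gata2 and Hhex. In siRNA libraries Tcf3, at 36.1 ± 0.496, stood above Tcf12, at 30.0 ± 0.781 CPM per kilobase, and Gata2 and Hhex again overlapped. Lyl1 and Mecom were far lower: Lyl1 was at 2.84 ± 0.126 in siRNA and 5.44 ± 0.461 in control libraries, and Mecom at 1.18 ± 0.0866 in siRNA and 2.00 ± 0.198 CPM per kilobase in control libraries. The 2 genes with the largest falls were thus also the 2 with the lowest levels in both groups. The order above them depends on the length used, and with the median transcript length Tcf12 came first, at 106.0 in siRNA and 99.6 CPM per kilobase in control libraries.

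**Figure D4:**
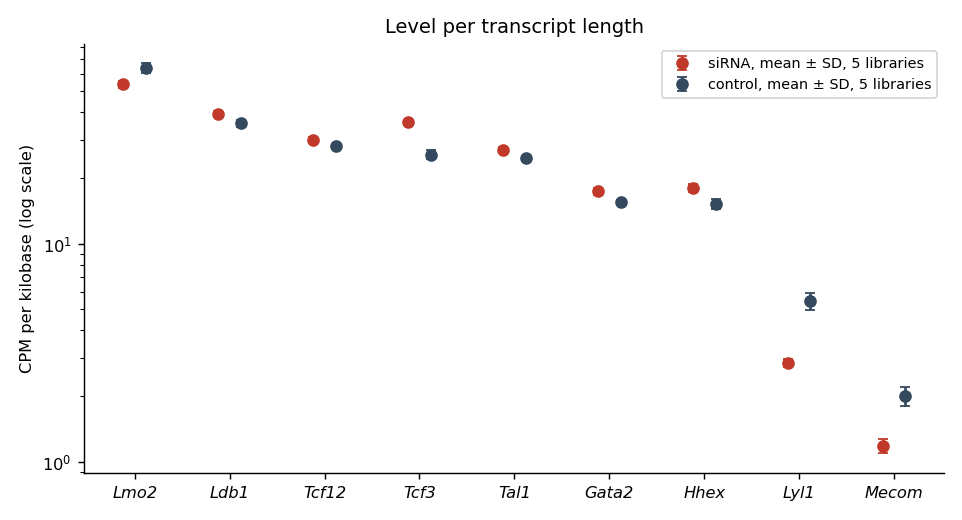
Level of each gene as CPM per kilobase of the longest annotated transcript (log axis), siRNA left of control for each gene, with points for the mean of 5 libraries and bars for the SD. Lmo2 leads at 53.7 in siRNA and 63.9 in control libraries, and Lyl1 and Mecom stand well below the other 7.

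In blood progenitors RUNX1, ERG and FLI1 bind with TAL1, LYL1, LMO2 and GATA2 at shared enhancers, a group known as the heptad. Their genes split here. Runx1, needed for the emergence of blood cells from endothelium, was at 21.5, 24.9, 23.8, 23.0 and 27.7 CPM in siRNA libraries, against 7.998, 6.89, 8.45, 7.399 and 6.95 CPM in control libraries. The groups were far apart, and Runx1 rose by 1.68 on the log2 scale (SE 0.071, adjusted p = 1.57e-23). The ETS factor genes Erg and Fli1 fell. Erg was at 171 ± 4.96 CPM in siRNA and 238 ± 8.90 CPM in control libraries (log2 fold change -0.48, adjusted p = 9.96e-20), and Fli1 at 118 ± 2.94 CPM in siRNA and 151 ± 1.74 CPM in control libraries (log2 fold change -0.36, adjusted p = 3.22e-16). Of the 7 heptad genes, Runx1, Tal1 and Gata2 rose and Lyl1, Lmo2, Erg and Fli1 fell. Among all tested genes 36.1% were called higher and 35.2% lower, so the split of calls says nothing particular of the heptad.

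Paralogs, genes related by descent to the 9, were 12, of which 9 have a row in the table and 6 were tested: 1 rose, 3 fell and 2 did not pass (median log2 fold change -0.16), a share called near the 71.3% of all tested genes. Ldb2, a second LDB scaffold gene, was at 219 ± 5.998 CPM in siRNA and 348 ± 7.05 CPM in control libraries and fell by 0.67 (adjusted p = 2.86e-26), whereas Ldb1 rose. Lmo4 rose by 0.23 (adjusted p = 3.48e-05) and Lmo1 fell by 0.31 (adjusted p = 0.00341). Prdm16, the relative of Mecom, fell by 0.20 (adjusted p = 0.0141) with overlapping groups, and the call was lost without siRNA library 5 (adjusted p = 0.0630). Gata6 did not pass, at -0.13 on the log2 scale (adjusted p = 0.349). Tal2, Gata3 and Gata4 were under the filter, with no library above 7 estimated counts.

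Of 23 cofactors known to bind the complex, 22 were tested, 10 rose, 7 fell and 5 did not pass, with a median log2 fold change of 0.00. These shares are near those of all tested genes, of which 71.3% were called, 36.1% higher and 35.2% lower, so the count says nothing particular of cofactors. The histone deacetylase genes Hdac2 and Hdac3 rose by 0.50 (adjusted p = 1.96e-19) and 0.38 (adjusted p = 3.20e-13), and Kdm1a, a histone demethylase gene whose counts were fractional in all 10 libraries, by 0.33 (adjusted p = 4.75e-14). Cbfa2t3, a corepressor that joins the TAL1 complex in blood cells, was at 22.9 ± 1.11 CPM in siRNA and 36.7 ± 1.40 CPM in control libraries and fell by 0.68 (adjusted p = 2.02e-17). Zfpm1, the cofactor of GATA proteins known as FOG, fell by 0.54 (adjusted p = 1.13e-12). The LDB1-binding genes Ssbp2, Ssbp3 and Ssbp4, named after their values were seen, had log2 fold changes of -0.23, 0.10 and -0.39, all past the threshold.

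Genes that members of the complex bind or regulate were listed for endothelium and for blood. Of 21 endothelial genes, 20 were tested, 14 fell, 3 rose and 3 did not pass, beside 35.2% lower and 36.1% higher among all tested genes, and the median log2 fold change was -0.29, beside 0.00. Prox1, Flt4, Nrp2, Nrp1, Cd34, Emcn, Cdh5, Tie1, Tek, Esam and Egfl7 were also among the endothelial markers counted above. This count is therefore not separate from the lower marker levels. The 5 with the smallest adjusted p all fell: Tie1, an endothelial receptor, by 0.66 (adjusted p = 5.47e-24), Robo4, a guidance receptor, by 0.58 (adjusted p = 5.03e-24), Egfl7, a secreted endothelial protein, by 0.52 (adjusted p = 3.03e-22), Flt4, the receptor for VEGFC, by 1.06 (adjusted p = 4.10e-19) and its coreceptor Nrp2 by 0.89 (adjusted p = 1.37e-17). Egfl7 shares 11.2% of its exon bases with other annotated genes. The 3 that rose, named after their values were seen, were Angpt2, a TIE2 ligand, at 1075 ± 56.6 CPM in siRNA and 417 ± 21.0 CPM in control libraries (log2 fold change 1.37), Kit, the stem cell factor receptor (0.53), and the semaphorin receptor gene Plxnd1 (0.15). Cdh5, Cd34 and Edn1 did not pass the threshold.

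The blood list was mostly at very low counts. Of 22 genes, 15 have a row in the table, 12 of these were under the filter and 3 were tested. Itga2b, an integrin of platelets and early blood progenitors, was at 4.61 ± 0.575 CPM in siRNA and 2.91 ± 0.552 CPM in control libraries (SD, n = 5 each), with log2 fold change 0.66 (SE 0.12, adjusted p = 8.28e-06), and its groups overlapped. Nfe2l2, a stress response factor expressed in most cells, rose by 0.08 (adjusted p = 0.00323). Hdc, the histidine decarboxylase gene of mast cells and basophils, had 76 counts over the siRNA libraries and 94 over the control libraries (log2 fold change -0.33, adjusted p = 0.215). Among those under the filter, the erythroid factor gene Klf1 had 16 counts over the siRNA libraries and 12 over the control libraries, and the myeloid factor gene Spi1 had 0 counts over the siRNA libraries and 1 over the control libraries. Summed erythroid markers (4 of 7 with a row) ran from 0.274 to 0.823 CPM in siRNA and from 0.718 to 1.29 CPM in control libraries. Summed megakaryocyte markers (5 of 6) ran from 5.54 to 7.48 CPM in siRNA and from 5.85 to 7.72 CPM in control libraries, and summed myeloid markers (6 of 10) from 37.1 to 48.8 CPM in siRNA and from 51.4 to 59.9 CPM in control libraries, where both tested markers, Cd68 and Fcer1g, fell. Of 8 mast cell markers Hdc and Kit have a row, with a sum of 33.2 to 35.6 CPM in siRNA and 22.3 to 27.4 CPM in control libraries, nearly all of it Kit. Summed fibroblast and mural markers (9 of 9) ran from 13.5 to 15.7 CPM in siRNA and from 12.5 to 18.1 CPM in control libraries, and summed epithelial markers (3 of 5) from 7.68 to 8.73 CPM in siRNA and from 1.22 to 2.41 CPM in control libraries, where the 1 tested gene, Krt18, rose and the defining genes Epcam and Cdh1 were under the filter. The part of these levels in the results was not tested.

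**Figure D5:**
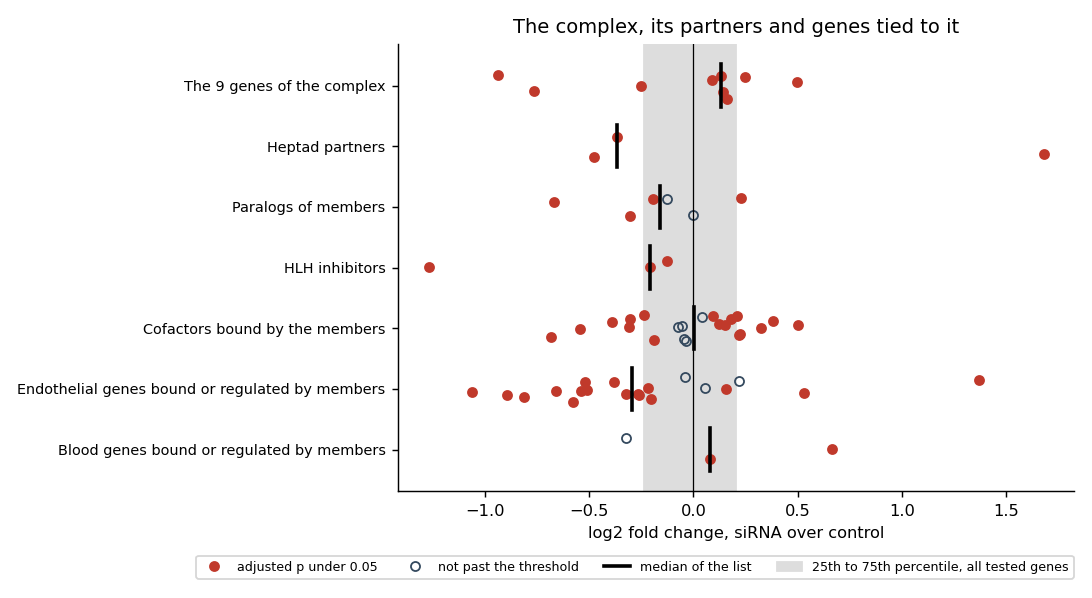
Log2 fold change, siRNA over control, of every tested gene of the complex and of 6 lists tied to it, filled where the adjusted p was under 0.05 and open otherwise, with a bar at the median of each list and a band from the 25th to the 75th percentile of all tested genes. The 9 genes of the complex have a median of 0.13 and the 20 endothelial genes one of -0.29, and Runx1, at 1.68, stands farthest to the right.

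Neighbours on the chromosome did not share one pattern with the genes of the complex. Beside Lyl1, Trmt1, a tRNA methyltransferase gene 1615 bases away, rose by 0.19 (adjusted p = 2.30e-05), and Nfix, a transcription factor gene whose end meets that of Lyl1, fell by 0.36 (adjusted p = 4.81e-12). Nfix and Lyl1 share 0.222% of the exon bases of Lyl1. The nearest tested genes to Mecom were Rpl22l1, a ribosomal protein-like gene as far as 1143872 bases away, and Mynn, a zinc finger gene 92328 bases away. Rpl22l1 fell by 0.58 (adjusted p = 1.03e-14), and Mynn was at 0.00 (adjusted p = 0.954). For Tal1, Stil, a centriole assembly gene 13223 bases away, fell by 0.15 (adjusted p = 6.19e-05), and Cyp4b1, 552943 bases away, had 0.07 (adjusted p = 0.197). Gata2 lay between Rpn1 and Eefsec, which rose by 0.23 and 0.31, and Tcf12 between Cgnl1 and Zfp280d, at 0.37 and 0.08. Beside Tcf3 were Uqcr11 at 0.07, which did not pass, and Rexo1 at 0.13, and beside Ldb1 Hps6 at -0.22 and Pprc1 at 0.78. Lmo2 had Caprin1 at 0.07 and Fbxo3 at -0.11, and Hhex had Kif11 at -0.14 and Exoc6 at 0.06.

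The genes whose log2 CPM ran closest to that of Lyl1 over the 10 libraries, among genes of at least 5 CPM, were Ago1 (Pearson r = 0.996), Ap3s1 (0.994) and Hmcn1 (0.994), with log2 fold changes of -0.47, -0.45 and -1.07. For Mecom they were Rab23 (0.985), B4gat1 (0.982) and H3f3a (0.981), with log2 fold changes of -0.27, -0.47 and -0.18. B4gat1 shares 85.3% of its exon bases with another annotated gene, and H3f3a had fractional counts in all 10 libraries. The points are 5 libraries of each of 2 groups, so these values mostly restate a shared difference between groups, and they are given without a p.

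The sequence of the siRNA is not given in the sources used here. A 7-base word, GTAAAGA, was singled out earlier on these data, and 12.9% of 11753 tested genes with an annotated 3′ UTR hold it there. Their median log2 fold change was -0.13, against 0.02 for genes without it. Because the word was picked on these same data, that contrast is no separate support for an effect of the word. Tal1, Tcf12 and Mecom hold the word, and Tal1 and Tcf12 rose while Mecom fell. Lyl1, Lmo2, Ldb1, Gata2, Tcf3 and Hhex do not hold it. Its part in the change of Mecom was not tested.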

How the data were processed

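Per the labels' protocols, poly(A) RNA was captured on beads and reverse transcribed from random primers, and circular libraries were sequenced. The authors deposited 1 table of estimated counts per gene and library, not normalized. The submitters' processing notes name HISAT2 2.2.1, Bowtie2 2.4.5, RSEM 1.3.1 and GRCm38.p6. What each tool did, whether counting used strand, the gene models and any filter were not given in the sources used here. A fractional value was held by 10.5% to 11.3% of genes per library and by none of the 9. Groups are those of the labels, and columns carry the sample names.

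Estimated counts were rounded and tested in edgeR 4.0.16 (R 4.3.3) with TMM factors, filterByExpr (min.count 10), group alone in a robust quasi-likelihood model, and Benjamini-Hochberg adjustment over 12161 genes at 0.05. Adjusted p-values in the text are from this fit. The SE is the size of the log2 fold change divided by the square root of F. The test against a fold of 1.5 was glmTreat. Ratios used exact permutation tests in Python 3.11.15 (numpy 2.4.6, scipy 1.17.1). Lengths, shared exon bases and 3′ UTRs came from GENCODE M21 (GRCm38), and coordinates and promoter windows from RefSeq, to which 16202 gene IDs matched. Counting depth limits low genes most: Lyl1 and Mecom among the 9, and Itga2b, Gata6, Hdc and genes under the filter beside them. Pairs of libraries within a group exceeded sampling noise, with 1.50 to 3.47 chi-square per degree of freedom, so none was treated as a duplicate deposit, which does not show separate cultures. The procedure was tested on simulated data.

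Named genes are the 9, Kdr, in each list the 5 or fewer genes with the lowest adjusted p, the 3 genes most like Lyl1 and Mecom, and the nearest tested neighbour on each side. Tcf4 enters through a ratio, and markers only as label checks. Protein sequences were not analysed here. The 9 genes, the lists and the tests were chosen with earlier results of these data known. Alternatives were DESeq2 1.42.0, limma-voom (limma 3.58.1), upper-quartile or RLE factors, a filter at a mean of 5 CPM or none, a block for replicate number, each library left out, counts with 0.5 added, other E proteins in a ratio and the median transcript length.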

Additional observations from a re-analysis of the deposited data

Results flagged for a closer look

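Within each group of 5 libraries, a library was set aside for notice when its gap to the nearest other library took more than 0.71 of the group's range (Dixon's 95% critical value). Chance gives about 1 in 20 such groups, and 4 of the 128 groups checked met it. Of the complex, Hhex in siRNA library 5 was at 64.8 CPM, below the other siRNA libraries at 70.9 to 72.6 CPM, and without it the log2 fold change of Hhex was 0.28. H3f3a was at 505 CPM in siRNA library 5, where the other siRNA libraries were at 521 to 527 CPM. Control library 2 was high for Robo4, at 239 CPM against 231 to 232 CPM in the other control libraries, and for Pprc1, the neighbour of Ldb1, at 47.9 CPM against 42.3 to 43.7 CPM.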

How the results depend on the processing

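Each of the 9 genes kept its direction and its call under all 17 other settings tried. The number of the 9 past a fold of 1.5 was 2, and it was 1 with the replicate block and 1 to 2 with 1 library left out, Mecom being the gene lost. The block changed no other call on the 9 genes and took those of Zfp280d and Exoc6. Same-numbered libraries did not deviate together (correlations from -0.195 to -0.0201, none highest with its own number). That cannot show whether they shared a culture or batch, and the numbers are used here only to name samples. All-gene counts ran from 7753 to 8956 under other settings and from 8437 to 8549 with a library left out. Of the blood list 2 genes were called, 1 at a mean of at least 5 CPM, where only 1 was tested, and 2 to 4 with a library left out (4 without siRNA library 5). Of 813 values of other named genes, 783 kept direction and call, 22 lost it, among them Zfp280d, Exoc6 and Prdm16, 2 gained it (Hdc, Uqcr11) and 6 turned, all for the log2 fold change of Mynn, which was never called: -0.0137 with upper-quartile factors, -0.00559 at a mean of at least 5 CPM, and -0.00798 to 0.0164 with a library left out. The 5 called ratios kept adjusted exact permutation p of at most 0.0190 with any library left out. All 5 had separated fully with all libraries, so that outcome was fixed and adds no support. For Lyl1 over Tal1, Lmo2 over Ldb1 and Id genes over E protein genes, the p with all libraries was itself fixed by the separate levels of the genes or their sums. With the median transcript length, levels in CPM per kilobase were, in siRNA and control libraries, 34.5 and 31.4 for Tal1, 80.3 and 95.5 for Lmo2, 60.1 and 54.5 for Ldb1, 35.9 and 32.1 for Gata2, 106.0 and 99.6 for Tcf12, 39.1 and 32.9 for Hhex, and 2.39 and 4.05 for Mecom, and 37.6 in siRNA libraries for Tcf3. Of the 9, depth limited Lyl1 and Mecom most, with the largest SE (0.084 and 0.081), and genes under the filter were not compared. The cause of each move was not tested, beyond the change of length itself.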
